A study of Mus musculus with 28 samples.

Results

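The p53 family of the mouse has 3 genes, Trp53, Trp63 and Trp73, and their DNA copy number was followed in 24 tumours. They were chosen by name and are 3 of the 20665 autosomal protein-coding genes that were measured. On GRCm38, Trp53 covers 69580348 to 69591873 of chromosome 11, Trp63 covers 25683763 to 25892088 of chromosome 16, and Trp73 covers 154056249 to 154139875 of chromosome 4. Exome sequencing, which reads the captured coding parts of the genome, was done on DNA of p53 AD/- mice, in which p53 is dimeric, and of p53 RP/- mice, in which it is monomeric. All animals therefore carried a null Trp53 allele opposite the mutant one, and all were on a 50% BALB/C, 50% C57BL6 background. Thymic lymphoma, a T-cell cancer that arises in the thymus, was sampled from 7 AD and 7 RP animals. Sarcoma, a cancer of connective tissue, was sampled from 5 AD and 5 RP animals. Each tumour came from a different animal at end point. Not given in the sources used here were the animals' ages, the part of Trp53 that the null allele lacks and the DNA each tumour was compared with.

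The 3 genes encode related transcription factors that bind as tetramers to the same type of DNA element. p53 is the stress-activated tumour suppressor that halts the cell cycle or kills damaged cells. p63 is required for the epidermis and other layered epithelia, and p73 is needed for neural development and for multiciliated cells. Trp63 and Trp73 each make full-length proteins that can switch on p53 target genes, and shorter ΔN proteins, started from an internal promoter, that can oppose them. In human cancers p53 is the member most often mutated or lost, while its relatives are seldom mutated.

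2 promoter windows of 250 bases are shown, as RefSeq gives them for GRCm38.p6, because of where they lie beside the segments. The Trp53 window, chr11:69580109-69580358 on the plus strand, lies in a stretch without segments in 4 tumours described further on. Those tumours thus have no segment value for it. The Trp73 window, chr4:154097174-154097423 on the minus strand, lies before an internal start inside the segment gained in 11 tumours. The capitals mark a match to the p53 response element, 2 half-sites of 10 bases side by side with at most 1 mismatch in each; it ends 46 bases before the start.
Trp53: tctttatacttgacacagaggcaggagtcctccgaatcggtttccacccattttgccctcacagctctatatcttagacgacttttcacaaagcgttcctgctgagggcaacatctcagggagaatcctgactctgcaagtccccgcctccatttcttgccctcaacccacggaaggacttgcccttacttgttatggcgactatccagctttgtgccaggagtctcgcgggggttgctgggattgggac
Trp73: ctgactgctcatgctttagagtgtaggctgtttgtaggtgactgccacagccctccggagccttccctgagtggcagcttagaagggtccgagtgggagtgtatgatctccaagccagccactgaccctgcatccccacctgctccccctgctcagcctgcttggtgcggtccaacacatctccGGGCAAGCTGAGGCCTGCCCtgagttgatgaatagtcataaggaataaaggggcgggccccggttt
Neither the Trp53 window nor the window before the far start of Trp73 had such a match, on either strand. Of 32851 promoter windows of this length, 126 (0.384%) had one. The match is a string of letters and not a measured binding site.

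Each value is a log2 copy ratio, the tumour over its comparison DNA, taken as the mean of the segments that overlap the gene, weighted by overlap; 0 is no difference. A gene was called gained at 0.3 or above, which is a ratio of 1.23, and lost at -0.3 or below, a ratio of 0.812. The tumours had 59 to 517 segments and 211948 to 212450 markers each; read depth is unknown. Autosomal marker totals ran from 204845 to 204922 in thymic lymphomas and from 205073 to 205076 in sarcomas, without overlap between genotypes in either, and any separate processing of the groups cannot be told apart from genotype or tumour type. The median over a tumour's autosomes was -0.12 ± 0.07 in thymic lymphomas (SD, n = 14) and -0.029 ± 0.026 in sarcomas (SD, n = 10), so a gene at 0 stands slightly above the middle of a thymic lymphoma.

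Trp53, the engineered gene, stayed near 0 in most tumours as an uncentred mean over the gene, and so read was lost in 0 of 24. In AD thymic lymphomas its lowest, median and highest log2 copy ratios were -0.094, -0.0074 and 0.19. In RP thymic lymphomas they were -0.23, -0.015 and 0.36. The AD tumours lay inside the range of the RP tumours. In AD sarcomas 1 to 5 the values were 0.051, 0.19, 0.011, 0.12 and 0.032, and in RP sarcomas 1 to 5 they were 0.10, 0.095, 0.16, 0.036 and 0.013. All 10 sarcomas were above 0, as were 6 of 14 thymic lymphomas, and the genotypes overlapped throughout. Only RP thymic lymphoma 5 passed a cutoff, as a gain, and 26.2% of all genes were called in 1 tumour or none. Loss in 0 of 24 tumours was shared by 34.5% of all genes, and no call in 10 sarcomas by 79.8%. Centred on each tumour's autosomal median, Trp53 was at 0.2 or above in 3 AD and 3 RP thymic lymphomas and in 1 AD sarcoma. Read as the segment at the middle of the gene, it was lost in 2 tumours.

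**Figure D1:**
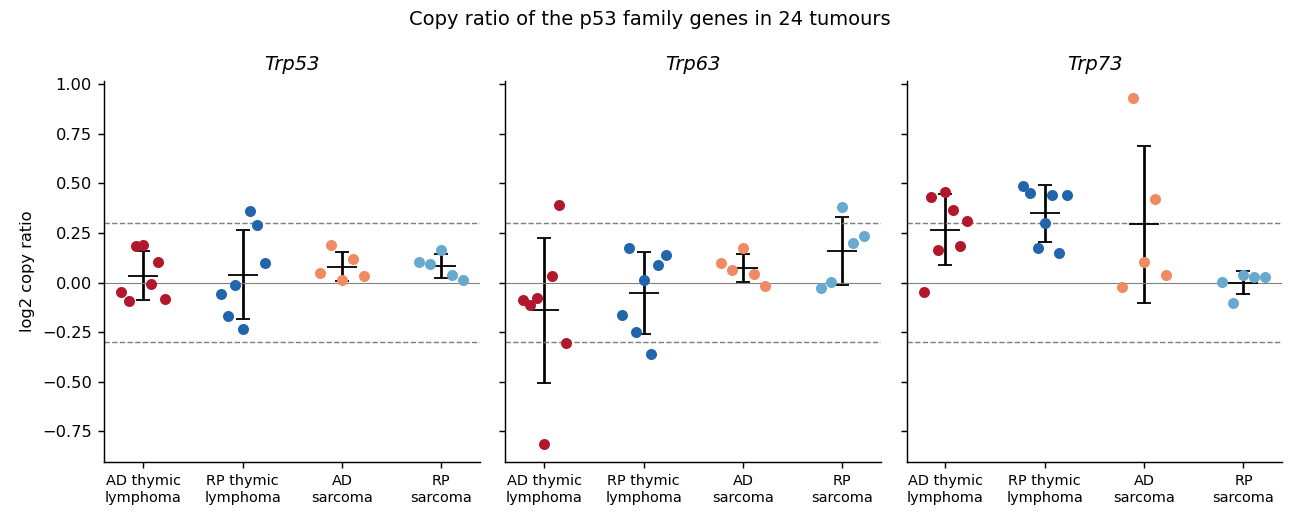
Log2 copy ratio (y axis) of Trp53, Trp63 and Trp73 in each tumour (points), by group, with mean and SD (bars); n = 7 for each thymic lymphoma group and n = 5 for each sarcoma group. Dashed lines are the cutoffs of 0.3 and -0.3. Trp73 points lie at or above 0.3 in 4 AD and 5 RP thymic lymphomas, while Trp53 points stay between -0.23 and 0.36.

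The Trp53 gain rested on a short stretch within the gene, and there was none with segments under 10 markers left out. In 6 tumours, 5 thymic lymphomas and 1 sarcoma, 3 of them AD and 3 RP, the gene was broken into segments, and the inner one had 3 to 8 markers. In 4 of these tumours it had exactly the same ends, 69586890 and 69588625, a length of 1736 bases with 5 markers that covers 15.1% of the gene. The left neighbour ended at 69578669 and the right one began at 69589140, which leaves gaps of 8220 and 514 bases that no segment covers, and the Trp53 window printed above lies in the longer gap. AD thymic lymphoma 7 shared the right end and had 8 markers from 69577625, and in AD sarcoma 1 the inner segment had 3 markers from 69587256 to 69588363. In the other 18 tumours no segment ended within Trp53.

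The inner segment did not run one way. Its log2 copy ratio was -0.31 in AD thymic lymphoma 5, against 0.13 to its left and 0.18 to its right. In AD thymic lymphoma 7 it was -0.20, against 0.35 and 0.28. In RP thymic lymphoma 1 it was -0.33, against 0.097 and 0.12. In these and in AD sarcoma 1, at -0.32 against 0.080 and 0.12, the inner segment was below both neighbours, at 0.699 to 0.748 of their mean level. RP thymic lymphoma 5 had 0.68 there, against 0.13 and 0.16, and RP thymic lymphoma 7 had 0.63, against -0.25 and -0.23. These RP tumours stood at 1.44 and 1.83 times the level of the neighbours. All 3 AD tumours were thus low inside the gene and the RP tumours went both ways. The labels give 4 tumours whose animals also gave an ear sample, and 0 of those had the short segment, beside 6 of all 24 tumours. Any link between the ear samples and the segment was not tested.

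**Figure D2:**
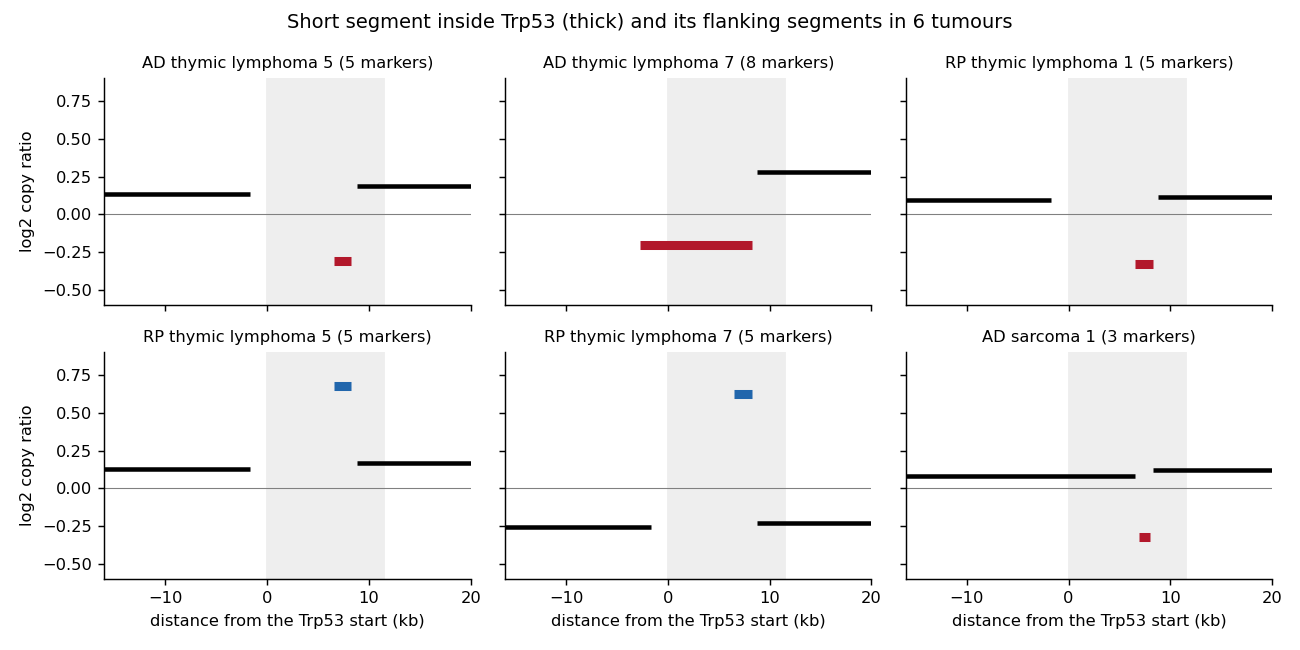
Log2 copy ratio (y axis) of the short segment inside Trp53 and of the segments to its left and right, in each of the 6 tumours that have one. The inner value lies below both neighbours in 4 tumours and above both in RP thymic lymphomas 5 and 7.

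Such breaks were rare across the genome. A segment of 10 or fewer markers lay over 34 genes (0.165%) in 6 tumours or more, and 15 genes (0.0726%) were split into 2 or more segments that often. Of 1609 chromosome 11 genes, Trp53 was the only 1 (0.0622%) split in as many as 6 tumours. The part played by the null allele, the engineered allele or the comparison DNA in this segment was not tested. It also entered the value of the whole gene: in the 4 tumours with the same ends, 1736 of the measured bases of Trp53 lay in it and 2734 in the right neighbour. The 6 nearest genes show the same edge. Dnah2, Efnb3 and Wrap53 before Trp53 and Atp1b2, Shbg and Sat2 after it equalled Trp53 in 18 of 24 tumours and differed by up to 0.35 to 0.43 in the other 6.

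Trp63, on chromosome 16, spread more widely. In AD thymic lymphomas its lowest, median and highest log2 copy ratios were -0.82, -0.090 and 0.39. In RP thymic lymphomas they were -0.36, 0.013 and 0.17. AD values lay on both sides of the RP range. In AD sarcomas 1 to 5 the values were 0.099, 0.063, 0.17, 0.044 and -0.019, and in RP sarcomas 1 to 5 they were -0.026, 0.00040, 0.38, 0.20 and 0.23. RP sarcomas 3, 4 and 5 were above every AD sarcoma, and RP sarcomas 1 and 2 were below AD sarcomas 1 to 4. Trp63 was lost in AD thymic lymphomas 4 and 7 and RP thymic lymphoma 5, and gained in AD thymic lymphoma 6 and RP sarcoma 3. Loss in 3 or more of 14 thymic lymphomas was reached by 38.2% of all genes, gain in 1 or more by 47.6%, and gain in 1 or more of 10 sarcomas by 14.4%. Over both tumour types 65.5% of all genes were called in 5 or fewer of 24 tumours, the number of Trp63.

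Trp73 was the family member called in most tumours, each time as a gain. In AD thymic lymphomas its lowest, median and highest log2 copy ratios were -0.049, 0.31 and 0.46. In RP thymic lymphomas they were 0.15, 0.44 and 0.49. The groups overlapped, and 13 of 14 tumours were above 0. It was gained in 4 AD and 5 RP thymic lymphomas, with RP thymic lymphoma 4 exactly at the cutoff, and 1.05% of all genes were gained in 9 or more of 14. In AD sarcomas 1 to 5 the values were -0.023, 0.93, 0.10, 0.42 and 0.036, and in RP sarcomas 1 to 5 they were 0.0049, -0.10, 0.039, 0.026 and 0.030. AD sarcomas 2 and 4 were gained and the other 8 sarcomas lay between -0.10 and 0.10. Gain in 2 or more of 10 sarcomas was reached by 3.07% of all genes. Calls in 11 or more of 24 tumours, the number of Trp73, were reached by 0.707% of all genes.

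Group means put the order in numbers. Trp73 averaged 0.27 ± 0.18 in AD and 0.35 ± 0.14 in RP thymic lymphomas (SD, n = 7 each), and 0.29 ± 0.40 in AD and -0.00072 ± 0.0583 in RP sarcomas (SD, n = 5 each). Trp63 averaged -0.14 ± 0.37 in AD and -0.052 ± 0.207 in RP thymic lymphomas, and 0.072 ± 0.071 in AD and 0.16 ± 0.17 in RP sarcomas. Trp53 averaged 0.035 ± 0.123 in AD and 0.039 ± 0.225 in RP thymic lymphomas, and 0.080 ± 0.073 in AD and 0.082 ± 0.060 in RP sarcomas. Ordered by mean, neighbouring groups differed by less than the larger of their SDs for Trp53 and Trp63, and for Trp73 in all but the last step, in which RP sarcomas stood below AD thymic lymphomas by more than that.

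It was asked whether each gene has the level of its chromosome. Trp53 was within 0.1 of the median of chromosome 11 in 9 of 14 thymic lymphomas and in 10 of 10 sarcomas. The 5 exceptions are the 5 thymic lymphomas with the short inner segment, and with segments under 10 markers left out all 14 were within 0.1, at most 0.084 away. Outside that segment, Trp53 was thus near the median of chromosome 11, but for each gene both values come from the same segments. The segment over Trp53 covered most of chromosome 11 in 15 of 24 tumours, and the gene equalled the median in 16. With the segments over Trp53 left out of the median, the mean distance was 0.106 in thymic lymphomas (n = 13) and 0.050 in sarcomas (n = 6). Uncentred, chromosome 11 itself changed little in thymic lymphomas: the mean size of its median was 0.154, second smallest of 19 autosomes, with chromosome 16 in place 8 and chromosome 4 in place 13. Its uncentred median was between -0.27 and 0.29 in all 14, so no tumour had it gained or lost by the cutoffs. After each tumour was centred on its own autosomal median, the median chromosome 11 gene had a size of 0.176, beside 0.178 for all genes. In RP thymic lymphoma 6, where Trp53 equalled the chromosome median, the centred value was 0.40, above the cutoff for a gain.

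**Figure D3:**
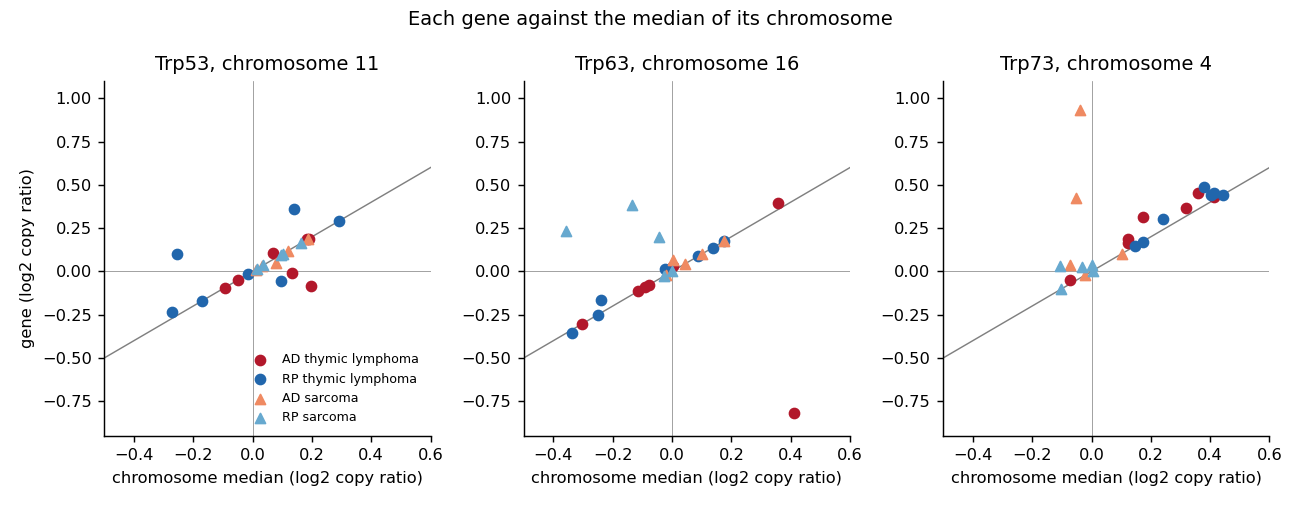
Log2 copy ratio of each gene (y axis) against the median log2 copy ratio of its chromosome (x axis), 1 point per tumour; the line marks equal values. Trp53 leaves the line in 5 thymic lymphomas, Trp63 in AD thymic lymphoma 4 and RP sarcomas 3, 4 and 5, and Trp73 most in AD sarcomas 2 and 4.

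Trp63 was within 0.1 of the median of chromosome 16 in 13 of 14 thymic lymphomas and 7 of 10 sarcomas. The exception in thymic lymphomas is AD 4, where chromosome 16 fell into 26 segments with a median of 0.41, and Trp63 was in a lost segment of 23.4 Mb and 2643 markers at -0.82, a difference of -1.23. The next segment of at least 100 markers was also low, at -0.86. This exception depended on weighting the median by length. With the median weighted by markers, the mean distance over the 14 thymic lymphomas was 0.0026 in place of 0.10. In RP sarcomas 3, 4 and 5 Trp63 was above its chromosome by 0.52, 0.25 and 0.59. In RP sarcoma 3 the segments on either side of it were higher, at 0.69 and 0.78, and in RP sarcoma 5 they were at 2.34 and 0.58. Trp63, at 0.38 and 0.23, was not in the most amplified part of the chromosome in these tumours. No segment ended within 1 Mb of Trp63 in any of the 24 tumours, and the segment over it had 771 to 6514 markers.

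Trp73 was within 0.1 of the median of chromosome 4 in 12 of 14 thymic lymphomas and 6 of 10 sarcomas, above it in 18 tumours, equal to it in 6 and below it in 0. The mean distance was 0.048 in thymic lymphomas, and the 9 with a Trp73 gain had chromosome 4 medians of 0.17 to 0.44. In sarcomas the gains covered a small share of the chromosome, near its end: AD sarcoma 2 had 0.93 over a terminal segment of 5.45 Mb with 1089 markers, and AD sarcoma 4 had 0.42 over 3.48 Mb with 599 markers, against chromosome medians of -0.038 and -0.052. In AD sarcoma 4 the gain stopped 1.52 Mb after Trp73, and the next segment, of 302 markers, was at -0.011. The stretch that both share, 152178170 to 155661105, holds 43 protein-coding genes, of which Trp73 is 1. No segment ended within 0.5 Mb of Trp73 in any tumour.

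**Figure D4:**
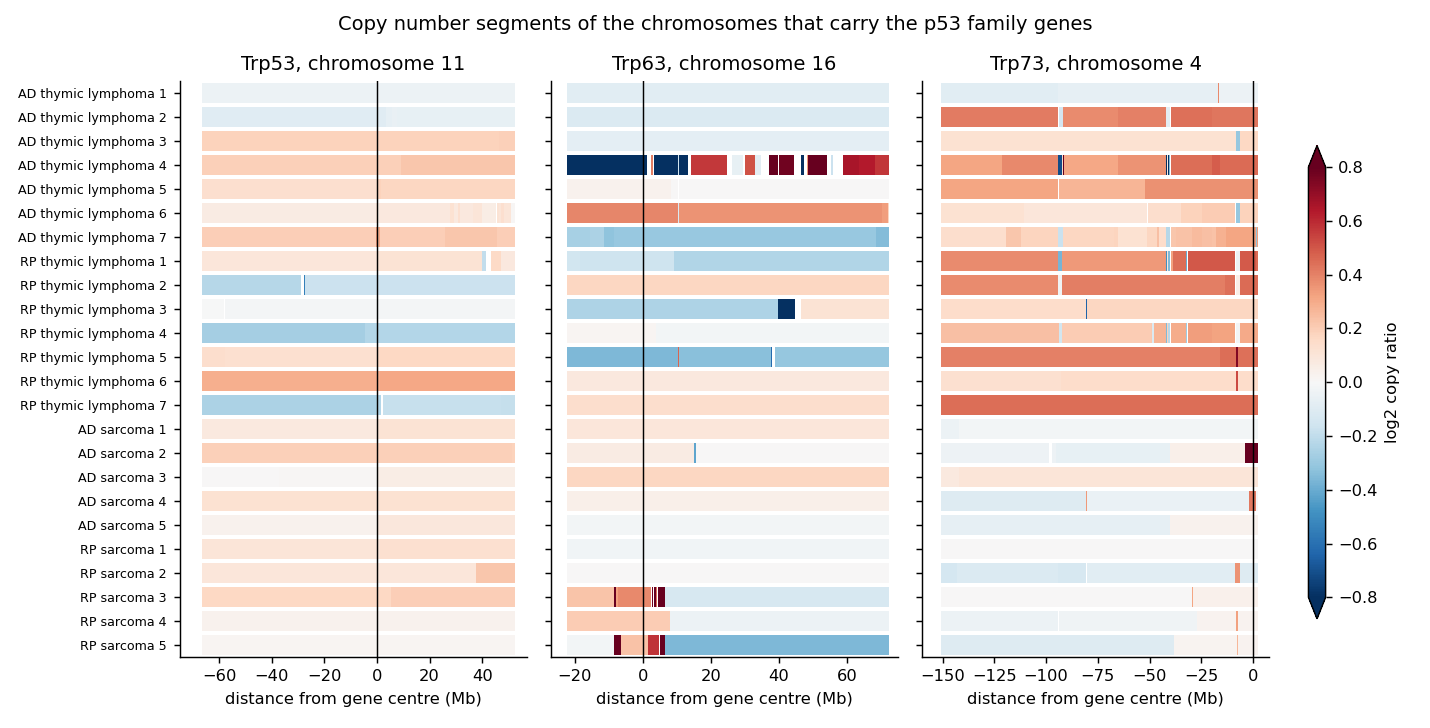
Copy number segments of chromosomes 11, 16 and 4 in each tumour (lines of the y axis), placed by distance in Mb from the centre of Trp53, Trp63 or Trp73 (x axis, vertical line); colour is log2 copy ratio. Chromosome 4 is red over most of its length in thymic lymphomas with a Trp73 gain, and in a short stretch around Trp73 in AD sarcomas 2 and 4, which reaches the last segment in AD sarcoma 2 only.

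The segment over Trp73 began at a common place. In 10 tumours, 7 thymic lymphomas and 3 sarcomas, it started between 147052515 and 147828669, at 147825730 in 5 and at 147052515 in 4. That start is the edge of a short segment of 3 to 65 markers at another level, lowest at -0.31 (AD thymic lymphomas 3 and 6) and highest at 1.11 (RP sarcoma 5). This short segment was below the Trp73 segment in 5 tumours and above it in 5. Beyond the short segment the level was close to that over Trp73: the Trp73 segment minus the nearest segment of at least 100 markers before it ran from -0.019 to 0.039. Between the lowest and highest start lie 8 protein-coding genes, and all 8 are Zfp zinc finger genes. The start at 147825730 is 6.23 Mb from Trp73. Both Trp63 and Trp73 had the same value as their 3 nearest genes on each side in 24 of 24 tumours, including Tprg and P3h2 beside Trp63 and Ccdc27 and Wrap73 beside Trp73.

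Whether the engineered gene keeps nearer to 0 than its relatives was tested within each tumour, on the size of the log2 copy ratio without its sign. In thymic lymphomas the size was 0.315 for Trp73 and 0.139 for Trp53, a difference of 0.176 ± 0.170 (SD, n = 14) that was positive in 12 of 14 tumours. A two-sided exact sign-flip permutation test gave p = 0.00342, adjusted p = 0.0205 over the 6 pairs of genes and tumour types. The difference rests on how Trp53 is read: with the segment at the middle of the gene in place of the mean it was 0.067, with adjusted p = 0.508 by the same exact test, since the middle of Trp53 lies in or next to the short segment and then takes its value in 5 of 14 tumours. Without AD thymic lymphomas 6 and 7, which had the most segments, it was 0.180, with an exact adjusted p = 0.0586.

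The other 5 differences did not pass. In thymic lymphomas the size of Trp63 minus that of Trp53 was 0.077 ± 0.218 (exact sign-flip permutation test, adjusted p = 0.436) and that of Trp73 minus Trp63 was 0.10 ± 0.22 (adjusted p = 0.326 by the same exact test). After each tumour was centred on its own median, the difference of Trp73 and Trp63 was 0.199 with an exact adjusted p = 0.0377. In sarcomas the differences were 0.090 ± 0.257 for Trp73 over Trp53, 0.043 ± 0.138 for Trp63 over Trp53 and 0.047 ± 0.347 for Trp73 over Trp63 (n = 10 each), with exact adjusted p from 0.473 to 0.732. Without AD sarcoma 2 the first of these was 0.018 and the third was -0.044.

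**Figure D5:**
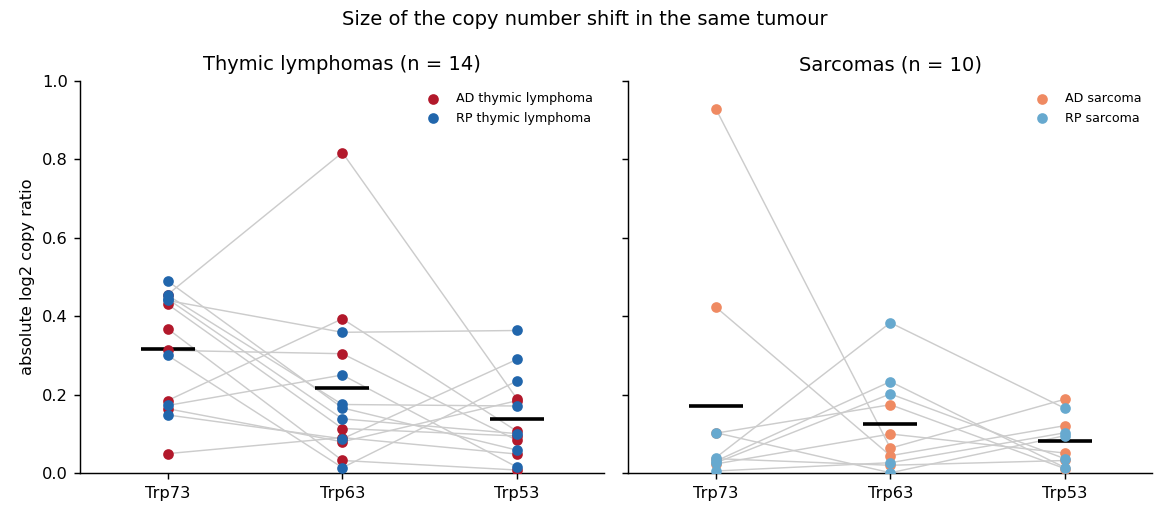
Size of the log2 copy ratio, without its sign (y axis), of the 3 genes in each tumour; a line joins the values of 1 tumour. Trp73 is above Trp53 in 12 of 14 thymic lymphomas and in 6 of 10 sarcomas.

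Set against the genome, the mean size of Trp53 in thymic lymphomas was small when read as the overlap-weighted mean. Of all genes, 2.81% had a smaller one, and the median gene had 0.225. This place depended on the processing: it was 38.8% after centring, 22.9% without segments under 10 markers and 62.6% with the segment at the middle of the gene. Among the 1609 chromosome 11 genes the place of Trp53 moved further. There 0.62% had a smaller size, and 1.24% after centring, but 97.3% without segments under 10 markers and 99.9% at the middle of the gene. The overlap-weighted mean puts the short segment together with a neighbour that often has the opposite sign. For Trp63, 46.5% of genes had a smaller size in thymic lymphomas and 81.2% in sarcomas. For Trp73 these were 85.8% and 96.1%, and for Trp53 in sarcomas 40.3%.

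The difference between AD and RP tumours passed the test at 0 of the 3 genes. In thymic lymphomas the AD minus RP difference in mean log2 copy ratio was -0.0041 for Trp53, -0.088 for Trp63 and -0.083 for Trp73, with adjusted p of 0.995, 0.752 and 0.597 in the exact permutation test. In sarcomas it was -0.0019, -0.086 and 0.29, with adjusted p of 0.999, 0.847 and 0.557 in the same exact test. The Trp73 difference in sarcomas comes from AD sarcomas 2 and 4, and was 0.135 without AD sarcoma 2. Of 20665 genes, 0 (0.0%) passed in either tumour type, by the permutation test or by limma, while 1766 in thymic lymphomas and 1047 in sarcomas had an unadjusted p under 0.05 (2067 and 2867 by limma). With 5 tumours against 5 the smallest possible p is 0.00794, and 15.9% of all genes would have to reach it for any to pass.

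The genotype difference was also compared between the tumour types. For Trp73 the AD minus RP difference in thymic lymphomas minus that in sarcomas was -0.38 (permutation test, p = 0.0578, adjusted p = 0.174 over the 3 genes). For Trp53 and Trp63 that difference of differences was -0.0022 and -0.0020. The sarcoma side of the Trp73 value comes from AD sarcomas 2 and 4. Tumour type was permuted within genotype, so p is not free of differences in level or spread between tumour types.

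Thymic lymphomas and sarcomas differed at many genes but not, by the threshold, at these 3. Permutation within genotype called 39.8% of all genes (39.7% by limma), 5.69% higher and 34.2% lower in thymic lymphomas. The difference of Trp63, thymic lymphomas minus sarcomas, was -0.21 with adjusted p = 0.0965 in that permutation test. It passed without AD thymic lymphoma 6, the tumour with its gain, at -0.25 with a permutation adjusted p = 0.0173, and without AD thymic lymphomas 6 and 7 at -0.23 with a permutation adjusted p = 0.0306. After each tumour was centred on its own median the Trp63 difference was smaller, -0.12, with a permutation adjusted p = 0.360. Trp73 differed by 0.16 with adjusted p = 0.263 in the permutation test, and by 0.25 with adjusted p = 0.0101 without AD sarcoma 2. After centring the Trp73 difference was 0.25, with a permutation adjusted p = 0.0694. Trp53 differed by -0.044, with a permutation adjusted p = 0.615.

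Genes on other chromosomes with the most similar pattern over the 24 tumours were ranked by the mean absolute difference of log2 copy ratio. For Trp53 these were Golga4 at 0.122, Stoml1 at 0.122 and Gm29825 at 0.124, all on chromosome 9. For Trp63 they were H2-DMa at 0.163, and B3galt4 and Wdr46 at 0.166, on chromosome 17. For Trp73 they were Lifr, Osmr and Rictor on chromosome 15, all at 0.161 and tied with other genes of that chromosome. For comparison, the mean size of the log2 copy ratio over the 24 tumours was 0.115 for Trp53, 0.178 for Trp63 and 0.255 for Trp73.

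The genes that act on the family or with it were described next. The list of 27 partners and regulators includes Mdm2 and Mdm4, which inhibit p53, the acetyltransferases Ep300 and Crebbp, and Cdkn2a, whose ARF product blocks Mdm2. In thymic lymphomas 7.67% of their gene and tumour pairs were gained and 10.8% lost, beside 10.4% and 18.0% over all genes, and the median of their mean sizes was 0.208 beside 0.225. Cdkn2a was gained in 6 tumours, Ep300 in 5 and Rchy1, a ubiquitin ligase for p53, in 3. Hipk2, a kinase that phosphorylates p53, and Fbxw7, a ubiquitin ligase subunit and tumour suppressor, were each lost in 6, and Ube3a and Kat5 in 5. The medians of chromosomes 6 and 3, which carry Hipk2 and Fbxw7, were also lost in 6 each. Mdm2 was gained in 1 and lost in 1, and Mdm4 lost in 1. In sarcomas 1.48% of pairs were gained and 0.370% lost, beside 1.83% and 0.714% over all genes, and 23 of the 27 genes were called in no sarcoma. Ep300 was gained in 2, Ppp1r13l and Ube3a in 1 each, and Ppp1r13b was lost in 1.

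The list of 24 shared targets holds genes that family members switch on for arrest, death, repair or metabolism. In thymic lymphomas 11.01% of their pairs were gained and 20.2% lost, with a median size of 0.246, close to all genes. Sesn2 and Sfn were gained in 8 tumours and Trp53inp1 in 7, all 3 on chromosome 4 with Trp73. Pmaip1, which encodes the death protein Noxa, and Fas, the death receptor, were lost in 8 each, and Xpc, a DNA repair gene, in 7. They lie on chromosomes 18, 19 and 6, whose medians were lost in 8, 8 and 6 thymic lymphomas. Cdkn1a, the p21 gene, was gained in 1 and lost in 1. In sarcomas 1.67% of pairs were gained and 0.417% lost, and 19 of 24 genes were called in none. Bax, Bbc3, Aen and Cpt1c, all on chromosome 7, were gained in 1 sarcoma each, and Lpin1 was lost in 1.

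Between AD and RP tumours 0 genes of either list passed, by the permutation test or by limma. Unadjusted, 1 partner and 1 target had p under 0.05 in thymic lymphomas and 1 and 1 in sarcomas in the exact permutation test, and by limma 1 and 1 in thymic lymphomas and 3 and 5 in sarcomas. Between thymic lymphomas and sarcomas 7 of 27 partners passed, 1 higher and 6 lower, which is 25.9%. Among targets 13 of 24 passed, 3 higher and 10 lower, which is 54.2%, beside 39.8% of all genes. They include Bax, Bbc3, Aen and Cpt1c, all on chromosome 7, and Sesn2, Sfn and Trp53inp1, all on chromosome 4. Genes of the same chromosome often lie in the same segment, so these are not separate observations. Whether the share differs from that of all genes was not tested. After each tumour was centred on its median, 3 partners and 9 targets passed, beside 21.9% of all genes.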

How the data were processed

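Copy number was measured by exome sequencing, read at 150 nt, in 24 mouse tumours; 4 ear samples are not analysed here. The submitters' processing notes name GATK 4.1.0.0, BWA 0.7.17, Trim Galore 0.6.5 and the build GRCm38, without roles. Per the file headers, the deposited tables give 1 log2 segment mean and a count of markers per segment; base 2 is assumed from GATK's convention. The 3727 segments held 2 markers or more, and 0 tables were identical. Not given in the sources used here were the segmentation settings and the centring.

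Samples were grouped by the labels' genotype and tissue, with replicates numbered in label order. Genes, from RefSeq GRCm38.p6, took the overlap-weighted segment mean, or the nearest segment where none overlapped. AD and RP were compared by two-sided exact permutation over all 3432 or 252 splits, tumour types by 100000 resamples within genotype, with Benjamini-Hochberg adjustment over 20665 genes; limma 3.58.1 was an alternative. The smallest possible p is 0.000583 for 7 against 7. The chromosome median is weighted by segment length. The tests were tested on simulated data. Python 3.11.15, numpy 2.4.6, pandas 2.3.3, scipy 1.17.1, matplotlib 3.10.9 and R 4.3.3 were used. The members, the gene lists and the rule for named genes (the members, their 3 neighbours a side, the 3 most similar genes, and the most often called genes of each list, to which Mdm2, Mdm4 and Cdkn1a were added after their values were seen) were chosen with earlier results of these data known.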

Additional observations from a re-analysis of the deposited data

Results flagged for a closer look

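4 values stood apart from the rest of their group, out of 24 groups of values checked; chance alone sets about 1 in 20 groups apart. Trp63 in AD thymic lymphoma 4 was at -1.23 relative to the length-weighted median of chromosome 16, in a chromosome broken into 26 segments. As given above, that difference depended on the weighting. Trp73 in RP sarcoma 2 was at -0.10 on the log2 scale, below the other 4 RP sarcomas at 0.0049 to 0.039. Trp53 in AD sarcoma 1, the sarcoma with the short inner segment, was at -0.029 relative to chromosome 11, and Trp63 in AD sarcoma 2 was at 0.059 relative to chromosome 16. In the last 2 cases the other 4 tumours of the group were exactly at the level of their chromosome. Any value off that level would then be set apart, whatever its size, so the rate of 1 in 20 does not apply to these 2.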

How the results depend on the processing

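With 5 or 7 tumours a group, a difference below the spread between tumours cannot be seen, and normal cells in a tumour pull values to 0. AD tumours could not be paired with RP tumours, because each came from a different animal and replicate numbers only follow label order. Under the alternatives 430 values kept their direction and their side of the threshold or moved little. The distances from the chromosome have no threshold, and some of those counted here moved far. In thymic lymphomas the mean distance of Trp63 was 0.10, and 0.0026 with the median weighted by markers or 0.25 without its own segments (n = 8). That of Trp53 was 0.088, and 0.20 at the middle of the gene or 0.020 without short segments. The values outside the 430 follow. The AD minus RP difference of Trp53 had no stable sign: in thymic lymphomas it was 0.13 without segments under 10 markers, 0.0054 without AD tumours 6 and 7 (chosen after seeing the data), and -0.050 to 0.050 with 1 tumour left out; in sarcomas it was 0.00024 after centring, 0.0039 at the middle of the gene, 0.0065 without short segments, and -0.029 to 0.019 with 1 left out. With 1 tumour left out, AD minus RP of Trp63 in thymic lymphomas ran from -0.18 to 0.025, thymic lymphoma minus sarcoma from -0.25 to -0.16 for Trp63 and from 0.13 to 0.25 for Trp73, and the size of Trp73 over Trp63 in sarcomas from -0.044 to 0.091. Without AD thymic lymphomas 6 and 7, thymic lymphoma minus sarcoma was -0.23 for Trp63 and the size of Trp73 over Trp53 was 0.18. Centring gave 0.045 for Trp53 in thymic lymphoma minus sarcoma, 0.20 for Trp73 over Trp63 in size, and 4516 genes called between tumour types in place of 8235. The middle of the gene gave 0.067 for Trp73 over Trp53 and -0.033 for Trp63 over Trp53 in size. The mean distance of Trp53 from chromosome 11 in sarcomas was 0.0029, and 0.023 with the median weighted by markers or 0.050 without its own segments (n = 6). Trp53 was gained in 1 tumour, and in 2 at a cutoff of 0.2, 0 at 0.5, 2 after centring, 0 without short segments and 2 at the middle of the gene; it was lost in 0, and in 1 at 0.2 and 2 at the middle. Trp63 was gained in 2, and in 4 at 0.2 and 0 at 0.5, and lost in 3, and in 1 at 0.5 and 1 after centring. Trp73 was gained in 11, and in 1 at 0.5. The cause of these changes was not tested.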
